A study of Homo sapiens with 21 samples.

Results

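HLA class I molecules and the proteins that supply them with peptides were followed through 9 genes: the heavy chains HLA-B, HLA-C and HLA-E, the light chain B2M, the peptide transporter genes TAP1 and TAP2, the loading chaperone TAPBP, and the immunoproteasome subunits PSMB8 and PSMB9. They are 9 of the 19775 genes that the array's annotation names. The genes were chosen by symbol, and every probe set that the array's platform annotation gave to one of them was taken, which came to 23 of the 54675 probe sets on the array. None of the 23 was annotated to more than 1 gene. However, 9 of the 10 HLA probe sets carry the suffix x_at, with which the array's maker marks probes that can also match other transcripts, so the HLA values may hold signal from related HLA transcripts. Of the 23 probe sets, 20 exceeded the median of the array on 3 or more arrays and were tested. The other 3, B2M 232311_at, TAP2 208428_at and TAPBP 1555565_s_at, were too dim and are given no test.

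The arrays measured mRNA in HEY cells, a human ovarian carcinoma line, after transfection with mir-429. There were 7 groups of 3 arrays: cells given mir-429 and cells given a negative control miRNA, each at 24, 48 and 144 h, and untransfected cells at 0 h. The labels name the comparison arm only as synthetic mirna, and it is taken here as the control of the series' design. All groups are the same line in the same serum-containing medium, the transfected ones received a lipid reagent as well, and no group received the reagent without an miRNA or was left untransfected past 0 h. Replicates are labelled biological, but no label tells whether they were separate cultures, so the p-values reflect only the variation among these arrays, which may be technical.

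Class I molecules display peptides from inside the cell to cytotoxic T cells, and HLA-E is known mainly as a ligand of receptors on natural killer cells. Proteasomes cut proteins into peptides, and the immunoproteasome subunits PSMB8 and PSMB9 replace catalytic subunits of the standard proteasome and change where it cuts. The TAP1 and TAP2 proteins together form a transporter that moves the peptides into the endoplasmic reticulum. There TAPBP (tapasin) holds the transporter beside the heavy chain and B2M until a peptide is bound. Interferons are known to raise most of these genes through shared promoter elements, and many tumours lower them.

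The mature sequence of mir-429 is shown because it defines the treatment. Capitals mark its seed (bases 2 to 8), the stretch through which a miRNA mainly recognises its target mRNAs. The sequence is from RefSeq, build GRCh38.p14, at chr1:1169055-1169076 on the plus strand. It belongs to the miR-200 family, whose members fall into groups by seed, and miR-200c-3p is printed as one that shares the seed and miR-141-3p as one that does not.
hsa-miR-429: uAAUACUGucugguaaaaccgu
hsa-miR-200c-3p: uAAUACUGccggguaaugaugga
hsa-miR-141-3p: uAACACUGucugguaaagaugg
Target sites in the 9 mRNAs were not analysed here, so no change below is assigned to direct binding.

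Of the 9 genes, 8 had a promoter entry in the RefSeq table and HLA-E had none. The 250 bases before the start are printed for HLA-B (chr6:31357180-31357429), HLA-C (chr6:31272093-31272342), TAP1 (chr6:32853705-32853954) and TAP2 (chr6:32838740-32838989), all on the minus strand of GRCh38.p14. These 4 are shown because each gene had a probe set that was higher in control-transfected than in untransfected cells at 24 h. Capitals mark AANNGAAA on either strand, the core letters of elements that interferon regulatory factors are known to bind.
HLA-B: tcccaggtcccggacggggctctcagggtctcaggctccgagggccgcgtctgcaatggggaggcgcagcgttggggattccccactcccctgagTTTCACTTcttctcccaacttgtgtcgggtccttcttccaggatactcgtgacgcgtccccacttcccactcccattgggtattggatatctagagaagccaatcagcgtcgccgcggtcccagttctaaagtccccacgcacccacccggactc
HLA-C: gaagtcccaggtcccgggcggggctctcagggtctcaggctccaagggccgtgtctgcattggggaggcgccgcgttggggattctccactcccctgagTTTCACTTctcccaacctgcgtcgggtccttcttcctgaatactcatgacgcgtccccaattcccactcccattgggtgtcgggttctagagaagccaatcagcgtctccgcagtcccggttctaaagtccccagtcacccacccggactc
TAP1: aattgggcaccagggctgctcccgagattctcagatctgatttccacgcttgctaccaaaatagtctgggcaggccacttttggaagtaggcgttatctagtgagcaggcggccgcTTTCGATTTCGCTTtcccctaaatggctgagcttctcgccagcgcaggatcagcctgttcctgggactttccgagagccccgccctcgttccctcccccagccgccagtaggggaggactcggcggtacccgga
TAP2: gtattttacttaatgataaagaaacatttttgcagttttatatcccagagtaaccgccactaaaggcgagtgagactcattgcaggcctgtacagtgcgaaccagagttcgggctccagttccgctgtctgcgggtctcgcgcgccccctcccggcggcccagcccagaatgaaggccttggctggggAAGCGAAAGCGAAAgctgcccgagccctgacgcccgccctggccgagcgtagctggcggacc
The match began 155 bases before the start in HLA-B and 151 bases before it in HLA-C. TAP1 and TAP2 each held a pair of overlapping matches, at 134 and 128 bases in TAP1 and at 62 and 56 bases in TAP2. The 8 genes had 10 entries, since TAP1 and PSMB8 have 2 each, and the second TAP1 entry (chr6:32852762-32853011), not printed, held no AANNGAAA. B2M and TAPBP, not printed, each held a pair too, at 142 and 136 bases and at 18 and 12 bases. Neither had a probe set called in control against untransfected cells at 24 h. In all, 6 of the 10 entries held that motif, none of them of PSMB8 or PSMB9, against 20.3% of 35116 promoters searched. The PSMB9 window (chr6:32853942-32854191, plus strand) overlaps the printed TAP1 window, and the TAP1 matches lie outside the 250 bases searched for PSMB9. The GAS-type motif TTCNNNGAA was found in 2 of the 10 and in 6.57% of all, CCAAT in 5 of the 10 and in 32.0% of all, and a kB-type motif in 4 of the 10 and in 5.07% of all. Both strands were searched for each motif. A match describes the letters and is no evidence of a bound factor. In RefSeq's gene order on chromosome 6, TAP2, PSMB8, TAP1 and PSMB9 follow one another, HLA-C lies next to HLA-B, and B2M is on chromosome 15.

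The values are deposited log2 RMA values, so 1 unit is a 2-fold difference, and the level of one probe set says nothing about that of another. Array medians ran from 3.95 to 4.29. The lowest was replicate 1 of mir-429 at 144 h, and the next lowest was 4.14. Of the markers listed for this carcinoma line, KRT8, KRT18, KRT7, VIM, CD44 and AXL averaged 9.13 to 13.14 over all arrays, and KRT19 was dim at 3.77. Markers of leukocytes, which carry abundant class I, were dim: of 10 leukocyte markers measured, 9 did not pass the filter on dim probe sets, PTPRC averaged 2.34 and CD3E averaged 1.72. Of 13 class II genes, 3 passed that filter, and HLA-DRA averaged 2.57. CDH5, an endothelial cadherin, was bright in these cells at 8.63. The other endothelial markers were lower: VWF averaged 3.33, TEK 3.51, PECAM1 3.72, CLDN5 4.51 and KDR 4.76. CDH5 averaged 9.77 in untransfected cells, and 7.27 in mir-429 cells and 7.53 in control cells at 24 h.

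One measure of RNA or labelling quality moved with time. The signal at the 3' end of GAPDH and ACTB exceeded that at the 5' end by 3.15 ± 0.53 log2 units in untransfected cells at 0 h (SD, n = 3). At 24 h the excess was 2.87 ± 0.36 in mir-429 cells and 4.21 ± 0.21 in control cells (n = 3 each). At 48 h it was 8.55 ± 0.15 in mir-429 cells and 7.83 ± 0.62 in control cells, and at 144 h it was 3.35 ± 0.13 in mir-429 cells and 3.90 ± 0.47 in control cells. All 6 arrays of 48 h stood apart from the other 15, and the 24 h groups did not overlap. Its part in the results was not tested beyond refitting with this measure as a covariate, and what that changed is given below.

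**Figure D1:**
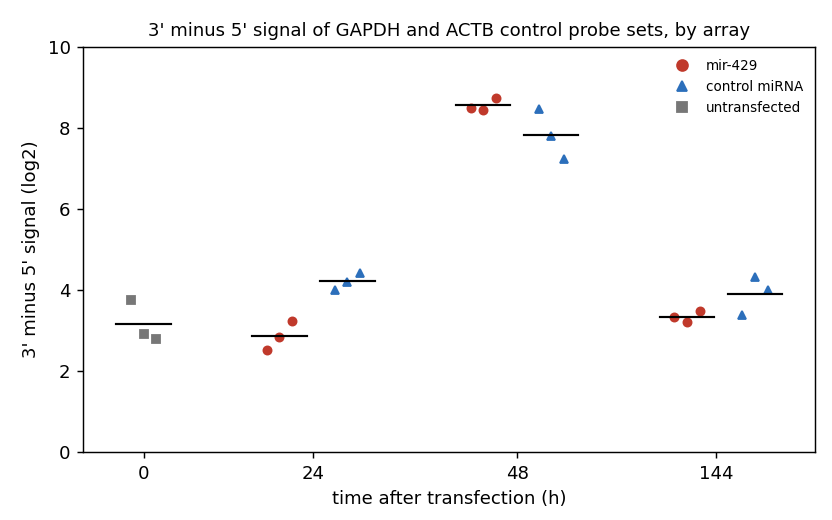
Each point is 1 array; the vertical axis is the mean 3' minus 5' signal of the GAPDH and ACTB control probe sets in log2 units, the horizontal axis the time after transfection as categories, not to scale, and bars are group means of 3 arrays. The 48 h arrays lie highest, at 8.55 on average in mir-429 cells and 7.83 in control cells, and at 24 h every mir-429 array lies below every control array.

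Mir-429 against control was the study's main comparison. At 24 h, TAP2 was the member with the clearest difference. Its main probe set, 225973_at, read 8.00, 8.01 and 8.06 in mir-429 cells, against 8.69, 8.98 and 8.63 in control cells. The mir-429 arrays lay close together and below every control array, and they were also below the untransfected arrays, which read 8.33, 8.40 and 8.30. TAP2 fell by 0.75 ± 0.11 (SE) on the log2 scale, 1.68-fold lower in mir-429 cells (limma, Benjamini-Hochberg adjusted p = 0.000208). With the 3' to 5' measure as a covariate the change was -0.78 ± 0.17 (limma adjusted p = 0.0207). The other tested TAP2 probe sets had the same sign without passing the test, at -0.27 ± 0.19 for 204769_s_at and -0.43 ± 0.21 for 204770_at (adjusted p = 0.382 and 0.187). The partner subunit TAP1 read 6.77, 6.93 and 6.92 in mir-429 cells and 7.14, 7.29 and 7.18 in control cells. These groups did not overlap, and the change of -0.33 ± 0.13 did not pass the test (limma adjusted p = 0.0919).

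The light chain gave another answer at each of its probe sets at 24 h. B2M 216231_s_at read 8.75, 8.84 and 8.99 in mir-429 cells, against 8.31, 8.47 and 8.34 in control cells, with no overlap. It rose by 0.49 ± 0.12 (limma adjusted p = 0.00931), and this call was lost with the 3' to 5' covariate (0.45 ± 0.18, adjusted p = 0.257). The brighter B2M 201891_s_at read 12.14, 12.36 and 12.36 in mir-429 cells and 12.37, 12.27 and 12.33 in control cells, a change of -0.03 ± 0.11. So the rise at 216231_s_at was not seen at the probe set with the stronger signal.

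In all, 1 of the 20 tested member probe sets was higher and 1 lower in mir-429 cells at 24 h. Over the whole array, 10.6% of tested probe sets were higher and 7.69% lower, so the members were not called more often than other probe sets. Their median change was -0.24, beside -0.02 over all tested probe sets. It was -0.14 with the 3' to 5' covariate, -0.13 without replicate 3 of control and -0.15 without replicate 1 of mir-429. Of the 10 HLA probe sets, 8 had negative and 2 positive changes, from -0.52 for HLA-E 200904_at to 0.17 for HLA-B 211911_x_at, and none passed the test. The immunoproteasome subunits did not pass the test, at 0.27 ± 0.25 for PSMB8 and -0.05 ± 0.21 for PSMB9.

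At 48 h the calls moved to other members. PSMB8 read 7.15, 7.38 and 7.65 in mir-429 cells, against 6.41, 5.95 and 7.32 in control cells. The third control array lay inside the mir-429 range, and the other control arrays lay below it. PSMB8 rose by 0.84 ± 0.25, 1.78-fold higher in mir-429 cells (limma adjusted p = 0.0294). The call was lost without replicate 1 or replicate 2 of control, or without replicate 2 or replicate 3 of mir-429, with values from 0.53 to 1.22 over the 6 arrays left out in turn. It was lost too when only the 6 arrays compared entered the fit (adjusted p = 0.240). HLA-C 211799_x_at read 5.99, 6.02 and 6.17 in mir-429 cells and 6.60, 6.47 and 6.73 in control cells, with no overlap. It fell by 0.54 ± 0.09 (limma adjusted p = 0.00058), and this call too was lost with only the 6 arrays compared (adjusted p = 0.0892). The other 3 HLA-C probe sets did not share this, with changes from -0.08 to 0.05.

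These were the only calls at 48 h, 1 of 20 higher and 1 of 20 lower, against 7.01% and 8.27% of all tested probe sets. The members' median change was -0.11, beside 0.00 over all tested; it was -0.05 without replicate 3 of control and -0.24 without replicate 2 of control. TAPBP 208829_at came near the threshold: it read 7.18, 7.32 and 7.58 in mir-429 cells and 7.72, 7.72 and 8.08 in control cells, which did not overlap (-0.48 ± 0.16, limma adjusted p = 0.0513). TAP2 225973_at again lay lower in every mir-429 array, at 8.40, 8.56 and 8.39 against 8.67, 8.77 and 8.84 in control cells, a change of -0.31 ± 0.11 that did not pass the test (adjusted p = 0.0755). Whether the 24 h and 48 h effects differ was tested directly, and 0 of 20 members passed in either direction (limma). Of all tested probe sets, 0.795% passed as higher and 1.59% as lower. At an unadjusted p under 0.05, 5 of the 20 members differed, and the share of all tested probe sets at that cut was not counted.

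**Figure D2:**
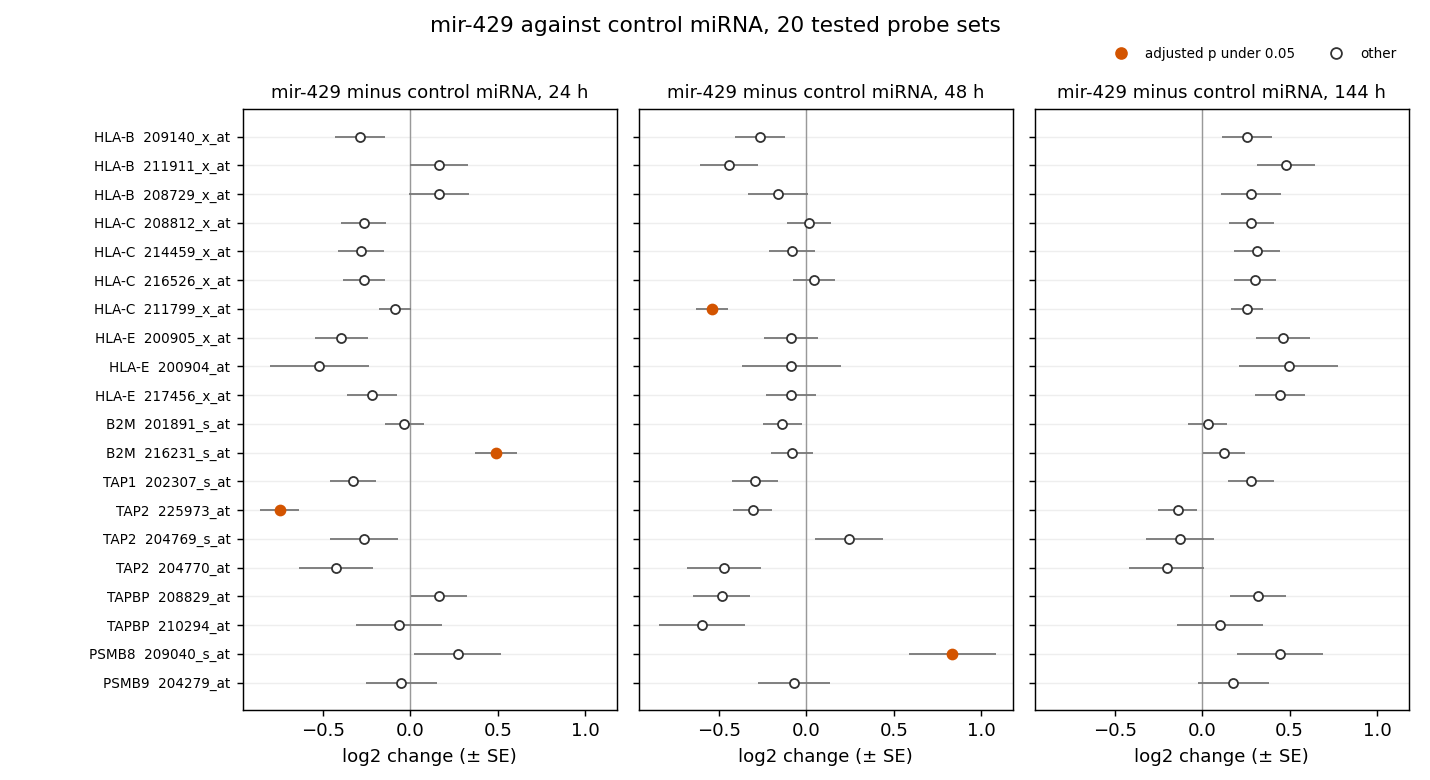
Points are log2 changes of mir-429 minus control cells for the 20 tested probe sets at 24, 48 and 144 h, with bars of 1 SE from the limma fit; filled points have an adjusted p under 0.05. TAP2 225973_at stands lowest at 24 h at -0.75, and at 144 h all 10 HLA probe sets lie to the right of 0.

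At 144 h none of the 20 members passed the test, while 0.871% of all tested probe sets were higher and 3.42% lower. At an unadjusted p under 0.05, 8 of the 20 did, and the share of all tested probe sets at that cut was not counted. Still, the members lay on one side: 17 of 20 changes were positive, with a median of 0.28 beside -0.05 over all tested probe sets. Without replicate 1 of mir-429, the array with the lowest median, 16 of 20 were positive, and these medians were 0.29 and -0.02. All 10 HLA probe sets were positive, from 0.26 to 0.49, with adjusted p from 0.0975 to 0.448. In 14 of the 20 members, the 10 HLA probe sets among them, every mir-429 array lay above every control array, as it did for 10.5% of all tested probe sets. HLA probe sets can share transcripts, so they are not independent of one another.

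HLA-E shows the pattern. Its probe set 200905_x_at read 8.69, 8.91 and 8.84 in mir-429 cells and 8.44, 8.25 and 8.35 in control cells at 144 h. No arrays overlapped, and the change was 0.46 ± 0.15 (limma adjusted p = 0.103). The probe set 200904_at, which lacks the x_at suffix, read 9.26, 9.17 and 9.14 in mir-429 cells and 8.77, 8.58 and 8.74 in control cells (0.49 ± 0.28, adjusted p = 0.408). Its arrays spread widely at 48 h, from 6.03 to 6.83 in mir-429 cells and from 5.56 to 7.24 in control cells. With the 48 h arrays left out of the fit, 4 members were called higher at 144 h: HLA-E 200904_at, 200905_x_at and 217456_x_at (adjusted p = 0.0213, 0.0384 and 0.0489) and HLA-B 211911_x_at (adjusted p = 0.0304). In that fit 467 of all 30553 tested probe sets were called higher and 1502 lower, against 266 and 1044 in the main fit.

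HLA-B and HLA-C were alike in direction at 144 h. HLA-B 209140_x_at read 9.29, 9.50 and 9.40 in mir-429 cells against 9.19, 9.13 and 9.11 in control cells (0.26 ± 0.14). HLA-C 208812_x_at read 9.57, 9.69 and 9.67 in mir-429 cells against 9.39, 9.35 and 9.35 in control cells (0.28 ± 0.13). Neither passed the test (limma adjusted p = 0.395 and 0.266), and neither overlapped. The members without a positive change were the 3 tested TAP2 probe sets, from -0.20 to -0.13. B2M 201891_s_at read 12.32, 12.51 and 12.26 in mir-429 cells and 12.25, 12.39 and 12.36 in control cells, which overlapped (0.03 ± 0.11).

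The change of the mir-429 effect between 24 and 144 h was tested directly. It was positive in 19 of 20 members, with a median of 0.33 beside -0.05 over all tested probe sets. With the 3' to 5' covariate it was positive in 16 of 20, with a median of 0.41. It passed in 6 of 20, all positive, against 3.39% of all tested probe sets in that direction and 8.24% in the other. The 6 were HLA-E 200905_x_at (0.86 ± 0.21, limma adjusted p = 0.0163) and 217456_x_at, HLA-C 214459_x_at and 216526_x_at, TAP1 and TAP2 225973_at. For HLA-E 200905_x_at the effect was 0.46 ± 0.15 at 144 h and -0.40 ± 0.15 at 24 h, when it read 8.35, 8.49 and 8.41 in mir-429 cells and 8.73, 8.61 and 9.11 in control cells. For TAP2 225973_at the effect was -0.14 ± 0.11 at 144 h and -0.75 ± 0.11 at 24 h, so its difference of 0.61 ± 0.16 (adjusted p = 0.0197) is a smaller deficit and not a rise. TAP1 stood between these, with 0.28 ± 0.13 at 144 h and -0.33 ± 0.13 at 24 h (0.61 ± 0.18, adjusted p = 0.0411). The count of 6 is not firm: 2 passed with the 3' to 5' covariate, 1 without the filter on dim probe sets, and 1 to 5 when single arrays were left out. HLA-E 200905_x_at was called in each of these. Of the 4 calls lost with the covariate, HLA-E 217456_x_at was then at 0.69, HLA-C 214459_x_at at 0.67, HLA-C 216526_x_at at 0.50 and TAP1 at 0.48.

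The control transfection itself was set against untransfected cells. At 24 h, 9 of 20 members were higher and 0 lower in control cells, against 13.4% of all tested probe sets higher and 16.4% lower. The members' median change was 0.38, beside 0.02 over all tested. TAP1 had the lowest p: it read 7.14, 7.29 and 7.18 in control cells, against 6.72, 6.35 and 6.28 in untransfected cells. The groups did not overlap, and TAP1 rose by 0.75 ± 0.13 (limma adjusted p = 0.000436). TAP2 rose at 2 probe sets, 204769_s_at by 0.64 ± 0.19 and 225973_at by 0.42 ± 0.11 (adjusted p = 0.0187 and 0.00865).

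Of the 10 HLA probe sets, 6 rose at 24 h, all of them with the x_at suffix. HLA-E 200905_x_at read 8.73, 8.61 and 9.11 in control cells and 8.15, 8.27 and 8.22 in untransfected cells, and rose by 0.60 ± 0.15 (limma adjusted p = 0.00653). HLA-E 217456_x_at rose by 0.43 ± 0.14, HLA-B 209140_x_at by 0.49 ± 0.14, and HLA-C 208812_x_at, 216526_x_at and 214459_x_at by 0.42, 0.42 and 0.40. The remaining HLA-B probe sets, at -0.07 and 0.16, did not pass, nor did HLA-C 211799_x_at at 0.25 ± 0.09 (adjusted p = 0.0505). HLA-E 200904_at, which lacks the suffix, was at 0.23 ± 0.28 (adjusted p = 0.576), with overlapping groups. Neither did B2M, at 0.20 ± 0.11 and -0.24 ± 0.12, TAPBP 208829_at at 0.09 ± 0.16, PSMB8 at 0.42 ± 0.25 or PSMB9 at 0.36 ± 0.21. PSMB9 varied widely among the control arrays, at 6.72, 6.26 and 7.26, around the untransfected values of 6.43, 6.46 and 6.29. The third control array at 24 h was the highest of its group for all 10 HLA probe sets. Without that array 3 members were called, without the third untransfected array 4, with the 3' to 5' covariate 2, and with only the 6 arrays compared 4. The 2 left with the covariate were TAP1 (0.58 ± 0.17, limma adjusted p = 0.0342) and HLA-E 200905_x_at (0.74 ± 0.20, adjusted p = 0.0275). Of the 7 calls lost with it, 4 had a larger change than without it: HLA-C 208812_x_at was then at 0.52, HLA-C 214459_x_at at 0.49, HLA-E 217456_x_at at 0.47 and TAP2 225973_at at 0.45. The other 3 were smaller, HLA-B 209140_x_at at 0.37, HLA-C 216526_x_at at 0.32 and TAP2 204769_s_at at 0.42.

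**Figure D3:**
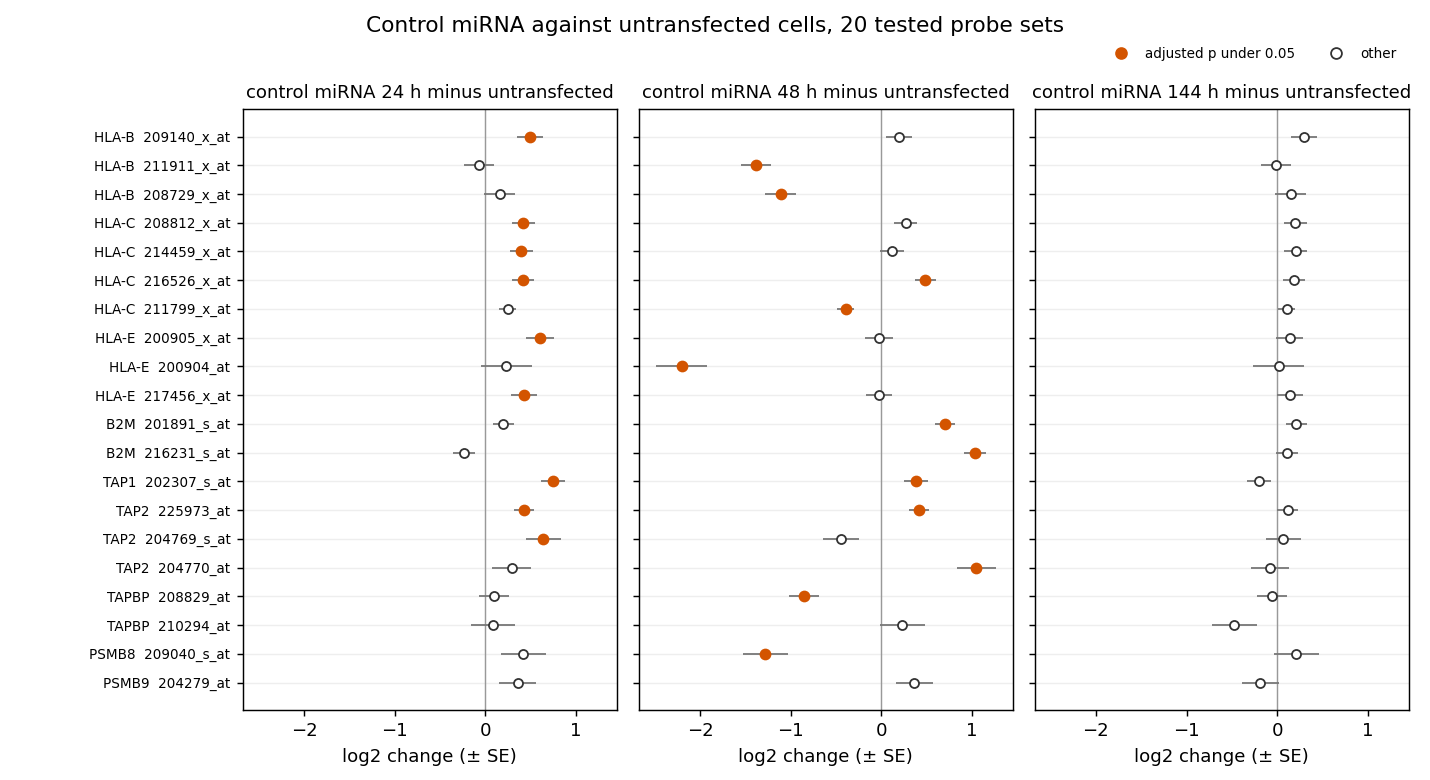
Points are log2 changes of control minus untransfected cells for the 20 tested probe sets, with control cells at 24, 48 and 144 h and bars of 1 SE from the limma fit; filled points have an adjusted p under 0.05. At 24 h the 9 filled points all lie to the right of 0, at 48 h they lie on both sides, and at 144 h there is none.

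At 48 h, 6 members were higher and 6 lower in control than in untransfected cells, against 21% and 31.7% of all tested probe sets. Probe sets of one gene disagreed. HLA-E 200904_at read 6.62, 5.56 and 7.24 in control cells, against 8.88, 8.51 and 8.63 in untransfected cells, and fell by 2.20 ± 0.28 (limma adjusted p = 6.6e-06), whereas HLA-E 200905_x_at changed by -0.02 ± 0.15. HLA-B fell by 1.39 ± 0.17 at 211911_x_at and by 1.11 ± 0.17 at 208729_x_at, and was at 0.20 ± 0.14 at 209140_x_at. HLA-C rose by 0.49 ± 0.12 at 216526_x_at and fell by 0.39 ± 0.09 at 211799_x_at.

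B2M rose at both tested probe sets at 48 h, by 0.71 ± 0.11 at 201891_s_at and 1.03 ± 0.12 at 216231_s_at. TAP2 rose by 1.05 ± 0.21 at 204770_at and 0.41 ± 0.11 at 225973_at, and TAP1 by 0.38 ± 0.13. PSMB8 fell by 1.28 ± 0.25 and TAPBP 208829_at by 0.85 ± 0.16. With the 3' to 5' covariate, which stood far above the other times in these arrays, none of the 12 calls was left (limma), 175 of all tested probe sets were called in place of 16089, and TAP1, TAPBP 208829_at and HLA-B 208729_x_at turned sign. Other changes were about as large or larger with it, with larger errors: HLA-E 200904_at was then at -2.16 ± 1.15, B2M 216231_s_at at 1.17 ± 0.49, TAP2 204770_at at 1.19 ± 0.87 and TAP2 225973_at at 0.53 ± 0.45. Smaller ones were PSMB8 at -0.50, HLA-C 211799_x_at at -0.34, HLA-B 211911_x_at at -0.29, and HLA-C 216526_x_at and B2M 201891_s_at at 0.06 each. The share of time after transfection and of this array measure in the 48 h values cannot be told apart.

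At 144 h, 0 of 20 members differed between control and untransfected cells in either direction (limma). Of all tested probe sets, 0.134% were higher and 0.101% lower. At an unadjusted p under 0.05, 0 of the 20 differed, again without a count over all tested probe sets. The HLA probe sets lay between -0.01 and 0.29 log2 units from the untransfected level. The 24 h control rise, the 24 h mir-429 deficit and the 144 minus 24 h difference rest on the same 24 h control arrays, so they are not independent results. For TAP2 225973_at, untransfected cells stood between the 2 transfected groups at 24 h. For HLA-E 200905_x_at, mir-429 cells at 24 h stood between control and untransfected cells.

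Over the 7 groups, the main probe sets differed in order. TAP2 225973_at was lowest in mir-429 cells at 24 h (8.02 ± 0.03, SD), apart from the next group, mir-429 at 144 h (8.32 ± 0.18), and was highest in both control groups of 24 and 48 h (8.77 ± 0.19 and 8.76 ± 0.09), which overlapped. TAP1 was highest in control cells at 24 h (7.20 ± 0.08), apart from mir-429 cells at 24 h (6.87 ± 0.09), and below these neighbouring groups overlapped down to control cells at 144 h (6.25 ± 0.08). HLA-B, HLA-C and HLA-E were highest in mir-429 cells at 144 h and control cells at 24 h, which overlapped for each. B2M 201891_s_at was highest in the 48 h groups (12.69 ± 0.15 with mir-429 and 12.83 ± 0.15 with control), whose arrays lay above those of all other groups. TAPBP 208829_at was lowest at 48 h, with mir-429 cells (7.36 ± 0.20) below control cells (7.84 ± 0.21) and both below the rest. PSMB8 ran from 6.56 ± 0.70 in control cells at 48 h to 8.52 ± 0.26 in mir-429 cells at 24 h with overlap at every step. PSMB9 ran from 6.21 ± 0.18 in control cells at 144 h to 6.76 ± 0.26 in control cells at 48 h.

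**Figure D4:**
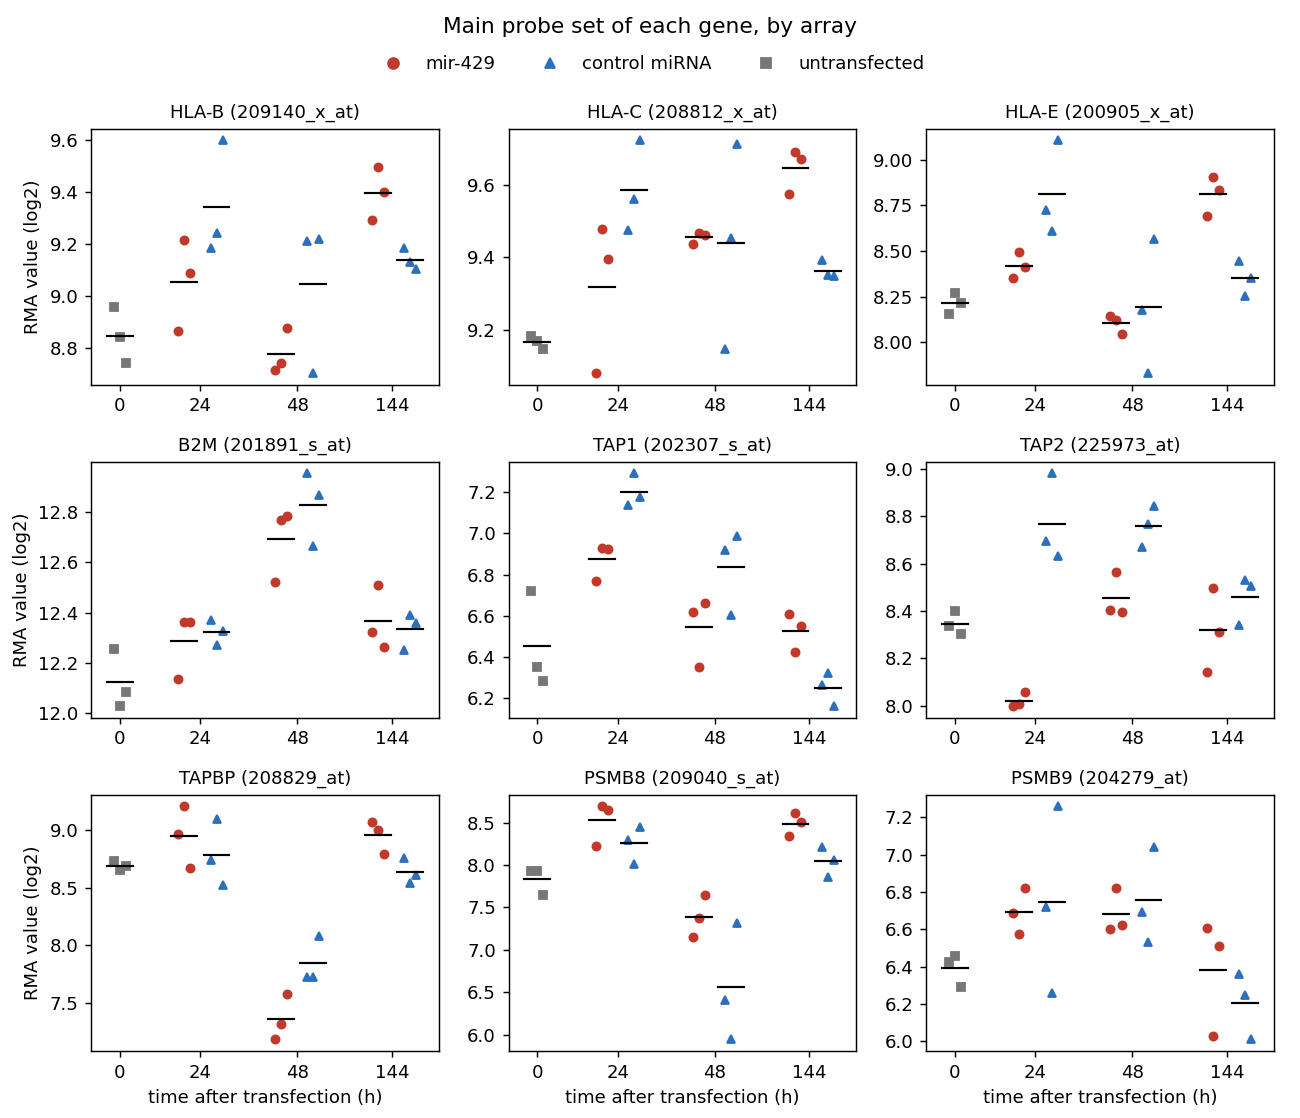
Each panel is the main probe set of 1 gene; points are arrays, bars are group means of 3 arrays, the vertical axis is the log2 RMA value (each panel on its own scale, not starting at 0), and the horizontal axis is time after transfection as categories, not to scale. TAP2 is lowest in mir-429 cells at 24 h, near 8.02, and TAPBP and PSMB8 are lowest at 48 h.

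Genes whose group means most resembled the mean standardised profile of the 9 main probe sets were COA8 (Pearson r = 0.929), PPIE (0.874), ZNF408 (0.854), ENTPD6 (0.845) and ZNF34 (0.841). The likeness was taken over 7 group means among 5213 candidate genes and is a description only. COA8, a mitochondrial protein needed for cytochrome c oxidase, averaged 8.11 in mir-429 cells and 8.87 in control cells at 24 h, with 7.71 in untransfected cells.

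Other parts of the pathway were read at 1 probe set per gene, with p adjusted over all probe sets. These lists, here and in the paragraphs that follow, were read in the main fit only, not with the 3' to 5' covariate. With it, calls over all tested probe sets at 24 h fell from 5587 to 754 for mir-429 against control cells. For control against untransfected cells they fell from 9118 to 3284. Of all tested probe sets, 10.6% were higher and 7.69% lower in mir-429 against control cells at 24 h, and 13.4% higher and 16.4% lower in control against untransfected cells. Of 22 tested proteasome genes, 0 rose and 3 fell in mir-429 against control cells at 24 h: PSMB10, the remaining immunoproteasome catalytic subunit (-0.52 ± 0.15), PSMB6, the standard subunit that PSMB9 replaces (-0.48 ± 0.14), and PSMA7 (-0.34 ± 0.11). The same 3 were among 12 proteasome genes that rose in control against untransfected cells at 24 h, with 0 falling. The proteasome list's median was 0.02 in mir-429 against control cells and 0.32 in control against untransfected cells. PSMB10 averaged 7.49 ± 0.12 in mir-429 cells and 8.00 ± 0.26 in control cells at 24 h, and 7.42 ± 0.22 in untransfected cells.

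Of 13 genes of peptide loading and trimming, 2 rose and 1 fell with mir-429 at 24 h. ERAP1, the aminopeptidase that trims peptides, rose by 0.48 ± 0.11, and PDIA3, a disulfide isomerase of the loading complex, by 0.48 ± 0.14. TAPBPL, a tapasin-related peptide editor, fell by 0.52 ± 0.14 with mir-429 (7.61 ± 0.17 in mir-429 cells and 8.13 ± 0.27 in control cells) and rose by 1.13 ± 0.14 in control against untransfected cells. Of 8 other class I-like heavy chains, MICB, a stress-induced ligand of the receptor NKG2D, rose with mir-429 at 24 and 48 h by 0.75 ± 0.12 and 0.60 ± 0.12. FCGRT, the neonatal Fc receptor chain, fell by 0.70 ± 0.16 and 0.73 ± 0.16. HLA-F and HLA-G at 144 h had 0.50 ± 0.16 and 0.37 ± 0.12 and did not pass the test (limma adjusted p = 0.0989 and 0.108).

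Of 27 tested regulators of class I genes, 9 rose and 0 fell with mir-429 at 24 h, with a median of 0.15, against 10.6% and 7.69% of all tested probe sets. STAT3, a transcription factor of cytokine signalling, rose by 1.04 ± 0.25, and SUSD6, a membrane protein known to lower surface class I, by 0.85 ± 0.20. STAT3 averaged 8.85 ± 0.24 in mir-429 cells and 7.81 ± 0.62 in control cells at 24 h, and 8.56 ± 0.34 in untransfected cells. For SUSD6 these were 8.13 ± 0.22, 7.29 ± 0.45 and 7.63 ± 0.17. Against untransfected cells, 3 regulators rose and 7 fell in control cells at 24 h, with a median of -0.14. Of all tested probe sets, 13.4% rose and 16.4% fell there. At 144 h 0 regulators rose and 2 fell with mir-429 against control cells, against 0.871% and 3.42% of all. NLRC5, the transactivator of class I genes, fell by 1.14 ± 0.27 (limma adjusted p = 0.024), while the HLA probe sets were positive. EZH2, a histone methyltransferase that can silence antigen presentation genes, fell by 0.46 ± 0.12. NLRC5 was dim and spread widely in mir-429 cells at 144 h, with 4.60 ± 0.82, against 5.74 ± 0.23 in control cells.

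The interferon response genes, which share inducers with the class I genes, did not move as a block. Of 38 tested, 6 rose and 3 fell with mir-429 at 24 h, with a median of -0.05, near the 10.6% and 7.69% of all tested probe sets. DTX3L, an E3 ubiquitin ligase, rose by 1.69 ± 0.13 and CD274 (PD-L1), the checkpoint ligand, by 1.39 ± 0.21, while PARP12 fell by 0.76 ± 0.14. CD274 averaged 8.50 ± 0.14 in mir-429 cells and 7.11 ± 0.12 in control cells at 24 h, and 7.93 ± 0.17 in untransfected cells. At 48 h CD274 averaged 8.75 ± 0.17 in mir-429 cells and 6.47 ± 0.55 in control cells. For DTX3L these were 10.09 ± 0.17 and 9.27 ± 0.13, and for PARP12 10.15 ± 0.11 and 10.04 ± 0.23. In control against untransfected cells at 24 h, 9 interferon response genes rose and 7 fell, against 13.4% and 16.4% of all. DTX3L and CD274 were among those that fell there, DTX3L by 1.19 ± 0.13 and CD274 by 0.82 ± 0.21. At 144 h, 1 rose with mir-429, IFITM2 (0.35 ± 0.10), a membrane protein that restricts virus entry, and 0 fell. Of all tested probe sets, 0.871% were higher and 3.42% lower there. Of the 3 tested class II genes, CTSS, the lysosomal protease cathepsin S, fell with mir-429 at 24 h by 0.62 ± 0.14. At 48 h CTSS averaged 4.47 ± 0.22 in mir-429 cells and 5.74 ± 0.22 in control cells.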

How the data were processed

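Per the submitters' processing notes, the authors ran RMA on HG-U133 Plus 2.0 arrays, and deposited one log2 value for each probe set and array. The RMA settings are not stated in the notes or labels used here. RNA was amplified and labelled with a 3'-end kit, per the labels' protocols. No further scaling was applied to the 21 arrays. The platform annotation named 41097 probe sets with 1 symbol, 1801 with several and 11777 with no symbol, and RefSeq (GRCh38.p14) supplied current symbols by Entrez number for 99.9% of them. Testing kept the 30553 probe sets that exceeded the array median on 3 or more arrays. limma 3.58.1 in R 4.3.3 fitted 1 mean per group (14 residual degrees of freedom, prior 3.47), with two-sided tests and Benjamini-Hochberg adjustment over all tested probe sets, threshold 0.05. Tables and counts were made with Python 3.11.15 and pandas 2.3.3. The procedure was tested on simulated data. Changes of 0.5, 1 and 2 log2 units were put into 67, 67 and 66 probe sets of the simulated mir-429 arrays of 24 h. Of these, 22.4%, 49.3% and 98.5% were recovered, and 6 of the 119 calls were false. Changes of 0.5 units were thus mostly missed in that test. The number of arrays limits the precision, since arrays have no depth.

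Members and gene lists were chosen with earlier results of these data known. All member probe sets are named; a gene's main probe set has the highest mean over all arrays. From each other list, each gene at its brightest probe set, up to 4 genes with the smallest p in any mir-429 comparison and up to 2 in any control comparison were eligible to be named; markers were named from fixed lists. Genes of like pattern needed a range of group means of at least 1 (log2), and the 5 with the highest r were taken. Same-numbered arrays did not deviate together (63 pairs, r from -0.56 to 0.45, median 0.0051), so numbers were not taken to pair cultures. Alternatives were quantile and cyclic loess scaling, no filter, a 3' to 5' covariate, only the arrays compared, a replicate block, genes in place of probe sets, no 48 h arrays, and each array left out in turn.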

Additional observations from a re-analysis of the deposited data

Results flagged for a closer look

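The mir-429 effect differed between 144 and 24 h in 6 member probe sets by a direct test of the difference (144 h minus 24 h, limma). The difference was 0.86 for HLA-E 200905_x_at, 0.66 for HLA-E 217456_x_at, 0.60 for HLA-C 214459_x_at, 0.57 for HLA-C 216526_x_at, 0.61 for TAP1 202307_s_at and 0.61 for TAP2 225973_at (adjusted p = 0.0163, 0.0425, 0.0445, 0.0378, 0.0411 and 0.0197). All 6 were also called higher in control than in untransfected cells at 24 h. Both results use the same 24 h control arrays and are not independent. The 3' minus 5' signal differed between mir-429 and control cells at 24 h too, at 2.87 ± 0.36 and 4.21 ± 0.21 (SD, n = 3 each). With it as a covariate, HLA-E 200905_x_at (0.96) and TAP2 225973_at (0.63) still passed (adjusted p = 0.025 and 0.0499).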

How the results depend on the processing

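Of 31 called member values, 4 kept call and direction under every alternative run: the 24 h decrease of TAP2 225973_at with mir-429, the 24 h increases of TAP1 and HLA-E 200905_x_at in control against untransfected cells, and the 144 minus 24 h difference of HLA-E 200905_x_at; 3 turned sign. Why values moved was not tested. With the 3' to 5' covariate, member calls were 0 higher for mir-429 against control at 24 h, 2 higher for control against untransfected cells at 24 h, 0 higher and 0 lower for control at 48 h, and 2 higher for the 144 minus 24 h difference. Of all 30553 tested probe sets, 399 were then higher for mir-429 at 24 h and 1495 higher for control at 24 h. For control at 48 h, 138 were higher and 37 lower, and for the 144 minus 24 h difference 487 were higher. Under the same covariate 29 of 160 member values (20 members in 8 comparisons) turned sign, 3 of them called, all for control at 48 h. They included B2M 201891_s_at 0.15 and TAPBP 208829_at -0.10 at 24 h and HLA-E 200905_x_at 0.0063 at 48 h for mir-429, and HLA-B 208729_x_at 0.35, TAP1 -0.35 and TAPBP 208829_at 0.057 for control at 48 h. Cyclic loess scaling reversed PSMB9 with mir-429 at 24 h (0.0027), and gave 1 member higher at 144 h (HLA-C 211799_x_at) and 1 lower in the 48 minus 24 h difference. Quantile scaling gave 2 lower at 24 h and 2 lower at 48 h for mir-429. With only the compared arrays, mir-429 had 2 lower at 24 h, 0 higher and 0 lower at 48 h and 1 higher at 144 h, and control had 4 higher at 24 h. Without the 48 h arrays, mir-429 had 3 lower at 24 h and 4 higher at 144 h. Without the filter on dim probe sets, 1 passed in the 144 minus 24 h difference. By genes, 2 of the 9 (TAPBP and TAP2) were lower with mir-429 at 48 h, in place of 0 by main probe set.

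The replicate block, which the pairing check did not call for, gave 2 lower in place of 1 with mir-429 at 48 h; it moved no other member count by over 1.5 times. Leaving out 1 array at a time gave, for mir-429, 1 to 2 lower at 24 h, 0 to 1 higher and 1 to 4 lower at 48 h, 3 to 9 higher for control at 24 h (lowest without control replicate 3), 0 to 3 lower for the 48 minus 24 h difference (highest without control 24 h replicate 2) and 1 to 5 higher for the 144 minus 24 h difference (lowest without control 144 h replicate 1). Changes crossed 0 in 32 of the 160 values, none of them called and 10 of them for mir-429 at 48 h. Among main probe sets for mir-429 against control these were B2M 201891_s_at (-0.073 to 0.042) and PSMB9 (-0.30 to 0.21) at 24 h, HLA-C 208812_x_at (-0.13 to 0.15), HLA-E 200905_x_at (-0.27 to 0.10) and PSMB9 (-0.18 to 0.070) at 48 h, and B2M 201891_s_at (-0.041 to 0.082) at 144 h. Over all probe sets, mir-429 against control gave 5587 calls at 24 h (754 with the covariate, 2975 with only the compared arrays), 4671 at 48 h (3863 and 1165) and 1310 at 144 h (945 and 973). Without the 48 h arrays the 144 h count was 1969, and without the filter on dim probe sets 753. Control against untransfected cells gave 9118 calls at 24 h (3284 with the covariate), and 72 at 144 h (10 with the covariate, 29 with only the compared arrays, 45 without the filter). The 48 minus 24 h difference gave 730 calls (1 with the covariate, 20 with only the compared arrays, 227 without the filter). The 144 minus 24 h difference gave 3556 (1669 with the covariate, 2120 without the filter). Leaving out single arrays moved the mir-429 counts to between 3005 and 7695 at 24 h, 3615 and 4648 at 48 h, and 475 and 1158 at 144 h, and those of the differences to between 148 and 3404 (48 minus 24 h) and 2006 and 5449 (144 minus 24 h). For control, these were 6032 to 10230 at 24 h, 13826 to 15640 at 48 h and 12 to 33 at 144 h. Calls higher with mir-429 at 144 h made up 20.3% of those called, 32.1% under quantile and 39.1% under cyclic loess scaling, and for the 144 minus 24 h difference 29.2%, 40.8% and 39.0%. The median change of all tested probe sets for control at 48 h was -0.12, and -0.01 under cyclic loess. By genes (12879 tested) mir-429 gave 3425 calls at 24 h, 2649 calls at 48 h and 754 calls at 144 h; control gave 4897 calls at 24 h and 7022 calls at 48 h.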
